A study of Mus musculus with 20 samples.

Results

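The genes described here are 9 neighbours of Nr1h3 on mouse chromosome 2, namely Acp2, Ddb2, Madd, Spi1, Slc39a13, Psmc3, Rapsn, Celf1 and Pacsin3. They were picked by name as rows of a count table of 54532 genes because they flank Nr1h3, and the choice was made with their genotype differences in these libraries already known. Their knockout against wild-type values are therefore given as a description without a test, and the tests concern the difference between kidney and liver, which the choice did not use. In KO mice that difference also holds the genotype effects in both tissues, most of all for Ddb2, as given below. RNA-seq was done on kidney and liver of male mice with a C57BL/6 background. The 4 groups of 5 libraries were kidney labelled Lxrα-/- (KO kidney), wild-type kidney (WT kidney), liver labelled Lxrα-/- (KO liver) and wild-type liver (WT liver). Titles number the KO mice 1 to 5 and the WT mice 1, 3, 4, 5 and 6. The labels give no treatment, age, diet or littermate status, and they do not say which piece of Nr1h3 was deleted or how the line was made.

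Lxrα, the product of Nr1h3, is a nuclear receptor for oxysterols that drives sterol efflux and fatty acid synthesis genes in liver and macrophages. Its neighbours have unrelated jobs, among them a lysosomal phosphatase (Acp2), a sensor of ultraviolet DNA damage (Ddb2) and a master transcription factor of myeloid and B cells (Spi1). Each has a promoter of its own, and some of their annotated spans overlap on opposite strands.

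In mm10 coordinates, the 9 genes and Nr1h3 lie between positions 90940382 and 91264679 of chromosome 2, in the order Celf1, Rapsn, Psmc3, Slc39a13, Spi1, Madd, Nr1h3, Acp2, Ddb2 and Pacsin3. Nr1h3 (91184061 to 91202834) is on the minus strand. Acp2 (ENSMUSG00000002103, 91202885 to 91214098) is on the plus strand, and only 50 bases lie between its annotated span and that of Nr1h3. The Nr1h3 span reaches that far through 1 non-coding transcript, whereas the outermost start of its 4 protein-coding transcripts is 7734 bases from the start of Acp2. Ddb2 (ENSMUSG00000002109, 91211572 to 91236982, minus strand) runs tail to tail into Acp2, with 2527 bases of overlap. On the other side, Madd (ENSMUSG00000040687, 91137360 to 91183837, minus strand) ends its span 223 bases short of Nr1h3. Mybpc3, the cardiac myosin-binding gene between Spi1 and Madd, is not among the 9 and was too low to test in either tissue.

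The promoters of Acp2 and Madd are shown because these genes adjoin Nr1h3 on either side, beside 1 promoter of Nr1h3 itself. Madd and Nr1h3 each have 2 promoters in the RefSeq table, and 1 of each is shown. The outermost annotated protein-coding start of Madd, at 91183818 and nearest to Nr1h3, lies outside both Madd windows. The bases before that start were therefore not searched. RefSeq start sites on GRCm38.p6 were used, which matched 5 of the 9 genes (Acp2, Madd, Slc39a13, Celf1 and Pacsin3). Each sequence is the 250 bases before the start, 5′ to 3′ on the gene's strand. Capitals mark matches on either strand to 3 motifs. They are the GC box with the letters GGGCGG, the sequence CCAAT known as the CAAT box, and the ETS core with the letters CCGGAAG.
Acp2, chr2:91202662-91202911, plus strand: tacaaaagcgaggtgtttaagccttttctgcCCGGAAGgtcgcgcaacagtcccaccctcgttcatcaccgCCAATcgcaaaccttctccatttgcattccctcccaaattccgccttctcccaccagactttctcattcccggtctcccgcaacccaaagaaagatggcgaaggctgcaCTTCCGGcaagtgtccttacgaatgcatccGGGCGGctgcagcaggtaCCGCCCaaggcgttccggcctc
Madd, chr2:91183048-91183297, minus strand: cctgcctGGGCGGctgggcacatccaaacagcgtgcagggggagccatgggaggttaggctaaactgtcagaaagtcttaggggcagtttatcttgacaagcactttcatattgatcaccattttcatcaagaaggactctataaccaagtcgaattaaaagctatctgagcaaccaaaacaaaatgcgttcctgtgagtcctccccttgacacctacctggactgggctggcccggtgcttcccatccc
Nr1h3, chr2:91195036-91195285, minus strand: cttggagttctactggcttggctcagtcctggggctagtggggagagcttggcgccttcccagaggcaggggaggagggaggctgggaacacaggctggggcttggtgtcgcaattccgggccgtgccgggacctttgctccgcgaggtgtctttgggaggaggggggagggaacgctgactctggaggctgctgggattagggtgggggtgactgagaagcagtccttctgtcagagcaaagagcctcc
The Acp2 sequence held 2 GC boxes, at -40 and -22 from the start, 1 CAAT box at -179 and 2 ETS cores at -219 and -70. The Madd sequence shown held 1 GC box at -243, and the Madd promoter not shown held 1 GC box at -92 and 1 CAAT box at -13. None of the motifs lay in either Nr1h3 promoter. Over 32851 RefSeq promoters of 300 bases, 35.7% held the GC box, 37.4% the CAAT box and 8.86% the ETS core. The DR4 element that Lxrα and its partner Rxr bind, searched on both strands as AGGTCA repeated in the same direction with any 4 bases between, was in none of the windows of the 5 matched genes and in 0.0152% of all promoters. The same windows held no TATAAA (13.6% of promoters) and no CACGTG (7.15%). These letters were searched in this window alone.

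Total counts ran from 23421561 to 35376342 per library. The mitochondrially encoded share was 50.8% in WT kidney 3 and 7.21% in WT kidney 1, against 12.6% to 21.1% in the other kidneys, so several values below are also given without them. Tissue labels matched their markers. The 6 proximal tubule genes summed to 31962 to 44695 CPM (counts scaled by library size and composition) in KO kidney and 17935 to 29252 CPM in WT kidney, and to at most 3.36 CPM in liver. The 6 hepatocyte genes summed to 61354 to 100701 CPM in KO liver and 105433 to 144047 CPM in WT liver, and to at most 549 CPM in kidney. By genotype, 1 of 6 proximal tubule genes was called in kidney (Slc22a6, an anion transporter, log2 fold change 1.11, edgeR adjusted p = 0.0332), and 1 of 6 hepatocyte genes was called in liver (Alb, albumin, -0.75, 0.0435). Lrp2, the 1 proximal tubule gene tested in liver, was higher there (2.41, edgeR adjusted p = 0.0144), at 1.54 CPM in KO and 0.275 CPM in WT. No tested marker of other nephron segments, skeletal muscle or neurons was called by genotype. The part of these differences in the results below was not tested.

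Nr1h3 counts did not fall in the labelled knockouts. Nr1h3 averaged 102 ± 18.8 CPM in KO kidney and 41.4 ± 2.14 CPM in WT kidney, and 208 ± 24.8 CPM in KO liver and 122 ± 17.9 CPM in WT liver (SD, n = 5 each). The log2 fold change, KO over WT, was 1.27 (SE 0.16) in kidney and 0.76 (SE 0.12) in liver. A count per gene does not show which exons were read, so it does not check the label, and every genotype direction below is that of libraries labelled KO against libraries labelled WT.

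Acp2, the gene head to head with Nr1h3, was higher in every KO library than in any WT library of the same tissue. It encodes a lysosomal acid phosphatase that removes phosphate groups inside lysosomes. KO kidneys 1 to 5 had 69.9, 68.0, 72.1, 67.3 and 77.9 CPM, against 27.7, 27.7, 26.8, 27.7 and 28.6 CPM in WT kidneys 1, 3, 4, 5 and 6. KO livers 1 to 5 had 118, 129, 105, 143 and 130 CPM, against 49.0, 53.4, 51.1, 58.9 and 51.3 CPM in WT livers 1, 3, 4, 5 and 6. No pair of the 4 groups overlapped, and the 5 WT kidneys, whose mitochondrial shares differed most, lay within 26.8 to 28.6 CPM. The group means descended from 125 ± 14.2 CPM in KO liver through 71.0 ± 4.27 CPM in KO kidney and 52.8 ± 3.79 CPM in WT liver to 27.7 ± 0.645 CPM in WT kidney. The log2 fold change was 1.33 (SE 0.13), or 2.51-fold, in kidney and 1.23 (SE 0.10), or 2.35-fold, in liver. Leaving out each library in turn gave 1.30 to 1.36 in kidney and 1.19 to 1.29 in liver. In whole tissue, more cells of a type and more RNA per cell cannot be told apart.

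**Figure D1:**
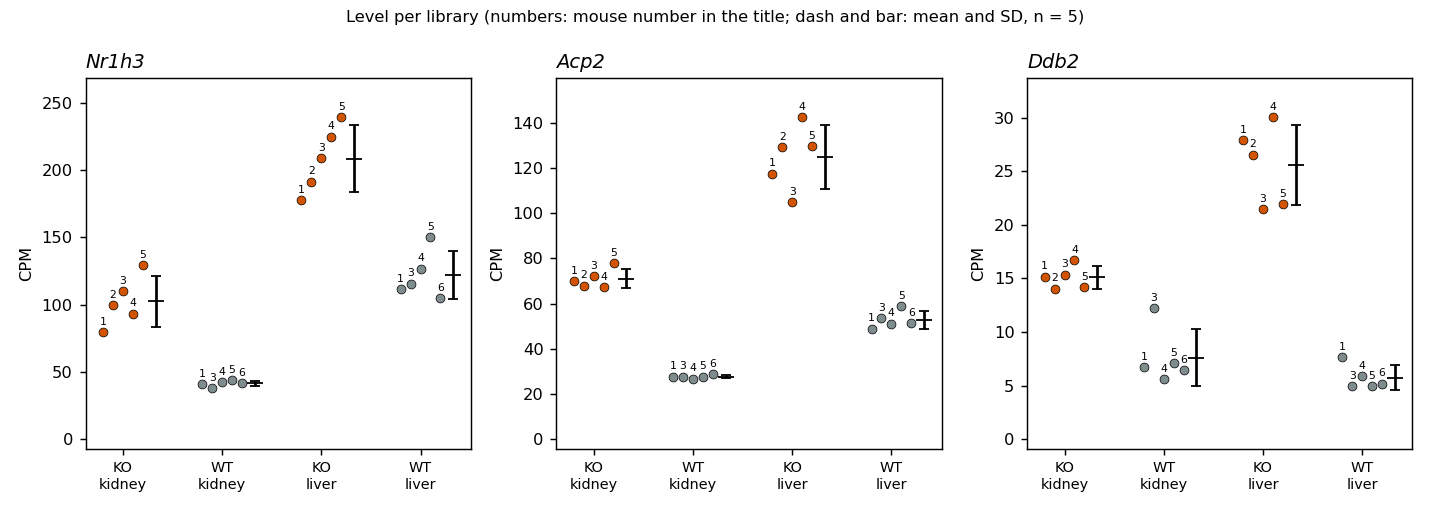
Level of Nr1h3, Acp2 and Ddb2 in each library (y axis, CPM) by group, with the number of the mouse above each point and a dash and bar for the mean and SD of 5 libraries. In all 3 genes the KO points lie above the WT points of the same tissue, and the liver gap of Ddb2 (25.6 CPM in KO liver and 5.73 CPM in WT liver) is wider than its kidney gap (15.1 CPM in KO kidney and 7.61 CPM in WT kidney).

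Ddb2, the next gene along, was also higher in KO libraries of both tissues, and more so in liver. Its product binds ultraviolet photolesions together with Ddb1 and recruits nucleotide excision repair, and in human cells it is a p53 target. KO livers 1 to 5 had 27.9, 26.6, 21.5, 30.1 and 22.0 CPM, against 7.67, 4.92, 5.90, 4.98 and 5.17 CPM in WT livers 1, 3, 4, 5 and 6. KO kidneys 1 to 5 had 15.2, 14.0, 15.4, 16.7 and 14.2 CPM, against 6.73, 12.2, 5.59, 7.08 and 6.41 CPM in WT kidneys 1, 3, 4, 5 and 6. The genotypes did not overlap in either tissue, but WT kidney 3 lay close to the KO kidneys. The order of the means was KO liver (25.6 ± 3.76 CPM), KO kidney (15.1 ± 1.08 CPM), WT kidney (7.61 ± 2.64 CPM) and WT liver (5.73 ± 1.15 CPM), and the last pair overlapped. The log2 fold change was 2.15 (SE 0.16), or 4.45-fold, in liver and 0.96 (SE 0.21), or 1.94-fold, in kidney. Without WT kidney 3 the kidney value was 1.23, and without WT kidneys 1 and 3 it was 1.22. The kidney call (edgeR adjusted p under 0.05) was made in 3 of 10 fits that leave out 1 library, and it was lost without any 1 of the KO kidneys or without WT kidney 4 or 5.

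The genotype effect of Ddb2 was larger in liver than in kidney, and that of Acp2 was of similar size in both. Subtracting the liver effect of genotype from the kidney effect gave -1.17 (SE 0.26, 95% interval -1.71 to -0.63) for Ddb2 and 0.11 (SE 0.16, -0.21 to 0.44) for Acp2, on the log2 scale. For Ddb2 it was -0.94 without WT kidney 3 and -0.91 without WT kidneys 1 and 3. The remaining neighbours with a value in both tissues ran from -0.47 (Slc39a13, SE 0.27) to 0.29 (Celf1, SE 0.24), and each of their 95% intervals included 0. Both effects were known when the genes were picked, so these differences carry no test.

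Ratios within a library, which do not depend on scaling between libraries, showed the same contrast. The Acp2 to Nr1h3 ratio had a median of 0.683 in KO kidney (0.601 to 0.879) and 0.682 in WT kidney (0.632 to 0.726), so both genes were higher by a like factor in kidney. In liver it was 0.634 in KO (0.503 to 0.676) and 0.439 in WT (0.392 to 0.490), with no overlap. The Acp2 to Ddb2 ratio was 4.87 in KO liver (4.21 to 5.90), 4.69 in KO kidney (4.02 to 5.49) and 4.11 in WT kidney (2.27 to 4.79), against 9.93 in WT liver (6.39 to 11.8). WT liver thus stood apart from the other 3 groups, with little Ddb2 for its Acp2. Acp2 and Ddb2 share 652 exonic bases on opposite strands, which are 12.6% of the exonic bases of Acp2 and 23.8% of those of Ddb2. The use of strand in counting is not given in the sources used here, so reads in that stretch cannot be assigned with certainty to either gene.

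The edgeR model called 2 of the 9 neighbours in kidney, Acp2 and Ddb2, both higher, where it called 2.26% of 16500 genes (0.394% as higher and 1.87% as lower). In liver it called the same genes as higher among 8 neighbours that passed the filter on low counts, where it called 6.02% of 14822 genes (1.94% as higher and 4.08% as lower). Rapsn was the neighbour that did not pass in liver. KO libraries that all lay above the WT libraries were found for Acp2 and Ddb2 in each tissue, and for 3.07% of genes in kidney and 2.44% in liver. Nothing is read from these counts, since the genotype values were known when the genes were chosen.

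**Figure D2:**
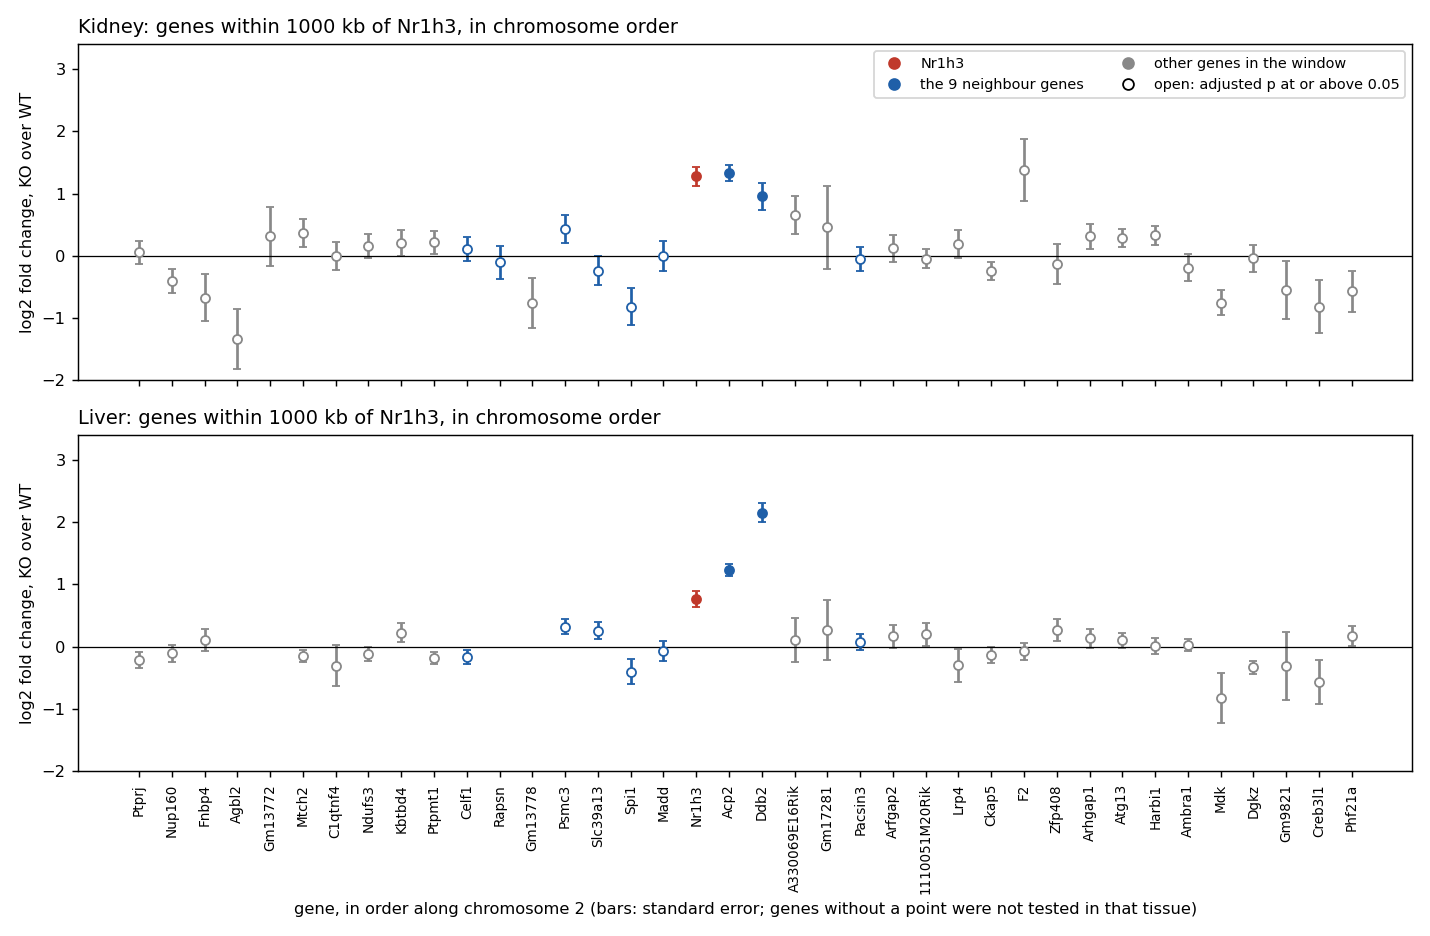
Log2 fold change, KO over WT (y axis), of Nr1h3, its 9 neighbours and the other genes tested within 1000 kb, in order along chromosome 2 (x axis), with kidney above and liver below and bars for the standard error. The called genes (filled points) are Nr1h3, Acp2 and Ddb2, which are adjacent, while Madd on the left of Nr1h3 lies near 0 in both tissues (-0.0015 in kidney and -0.07 in liver).

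The 2 higher neighbours lie on the same side of Nr1h3. Beyond Ddb2, the non-coding A330069E16Rik had a log2 fold change of 0.66 in kidney (edgeR adjusted p = 0.256) and 0.11 in liver (0.903). Pacsin3, the next protein-coding gene, whose F-BAR product bends membranes in endocytosis, gave -0.05 (SE 0.19) in kidney and 0.08 (SE 0.13) in liver. The gene list for the wider window takes in 67 genes within 1000 kb, 41 of them protein-coding and 10 with no count. Besides Nr1h3 and the 9 neighbours, 28 of them were tested in kidney and 25 in liver, and none was called by edgeR in either. Those nearest the threshold were Mdk, a growth factor gene, in kidney (-0.75, edgeR adjusted p = 0.0727) and Dgkz, a diacylglycerol kinase gene, in liver (-0.33, 0.0750). The median log2 fold change in the window without Nr1h3 was -0.0015 in kidney, against -0.07 over all genes tested, and 0.02 in liver, against -0.0032. The median size of the change, regardless of sign, was 0.31 in kidney within the window and 0.31 over all genes, and 0.18 and 0.19 in liver.

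Madd adjoins Nr1h3 on the other side, and its genotypes overlapped in both tissues. Its product activates Rab3 proteins in vesicle traffic and binds the TNF receptor. Madd averaged 11.5 ± 1.29 CPM in KO kidney and 11.3 ± 4.57 CPM in WT kidney, and 31.0 ± 7.29 CPM in KO liver and 32.4 ± 4.13 CPM in WT liver (SD, n = 5 each). Within groups it varied more than between genotypes. WT kidney 1 had 18.8 CPM, against 6.85 to 11.7 CPM in the other WT kidneys, and KO livers 4 and 5 had 23.6 and 23.2 CPM, against 34.2 to 39.6 CPM in the other KO livers. The log2 fold change of -0.0015 (SE 0.24) in kidney became 0.39 without WT kidneys 1 and 3, and that of -0.07 (SE 0.16) in liver became 0.17 without KO livers 4 and 5. Of 9 Rab3, Rab27 and TNF receptor genes tested as partners of Madd, none was called by genotype in kidney (median log2 fold change -0.17) or liver (0.05).

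Spi1, which encodes PU.1, was lower on average in KO libraries, but the groups overlapped and it was not called. Spi1 averaged 2.16 ± 0.468 CPM in KO kidney and 3.74 ± 1.41 CPM in WT kidney, a log2 fold change of -0.82 (SE 0.30). In liver it averaged 7.26 ± 2.42 CPM in KO and 9.49 ± 0.927 CPM in WT, a log2 fold change of -0.40 (SE 0.20). WT kidneys 3 and 4 were highest among kidneys, at 5.55 and 4.52 CPM, and without WT kidneys 1 and 3 the kidney value was -0.54. KO livers 1 and 3 were lowest among livers, at 4.88 and 5.07 CPM, while KO liver 5 was highest, at 10.8 CPM.

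Some other genes of myeloid cells were lower in KO liver. The 16 listed myeloid genes, such as Csf1r, Itgam and Adgre1, summed to 99.0 to 179 CPM in KO kidney and 130 to 170 CPM in WT kidney, and to 194 to 332 CPM in KO liver and 300 to 429 CPM in WT liver. In liver 3 of the 16 fell in the edgeR model and none rose. These were Mpeg1, a pore-forming protein of phagocytes (log2 fold change -1.14, edgeR adjusted p = 0.00323), Cybb, the phagocyte oxidase (-0.93, 0.00340), and Adgre1, which encodes F4/80 (-1.26, 0.0126). In kidney none of the 16 was called. The median over the list was -0.58 in kidney and -0.45 in liver, against -0.07 and -0.0032 over all genes.

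Markers of resident liver macrophages and of B cells, both of which use PU.1, were lower in KO liver as well. Of 5 Kupffer cell markers 4 fell in KO liver, and their sum was 61.4 to 151 CPM in KO liver and 237 to 390 CPM in WT liver. Cd5l, a macrophage gene that Lxrα is known to drive, fell most (log2 fold change -8.45, edgeR adjusted p = 1.22e-07). All 5 B cell markers fell in KO liver, with sums of 3.12 to 6.996 CPM in KO and 9.92 to 16.2 CPM in WT, while in kidney none of the 5 was called. No Kupffer marker passed the filter in kidney, where they summed to at most 0.0965 CPM, and 3 of 5 neutrophil markers were tested in each tissue with none called. The part of cell numbers in the Spi1 values was not tested.

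**Figure D3:**
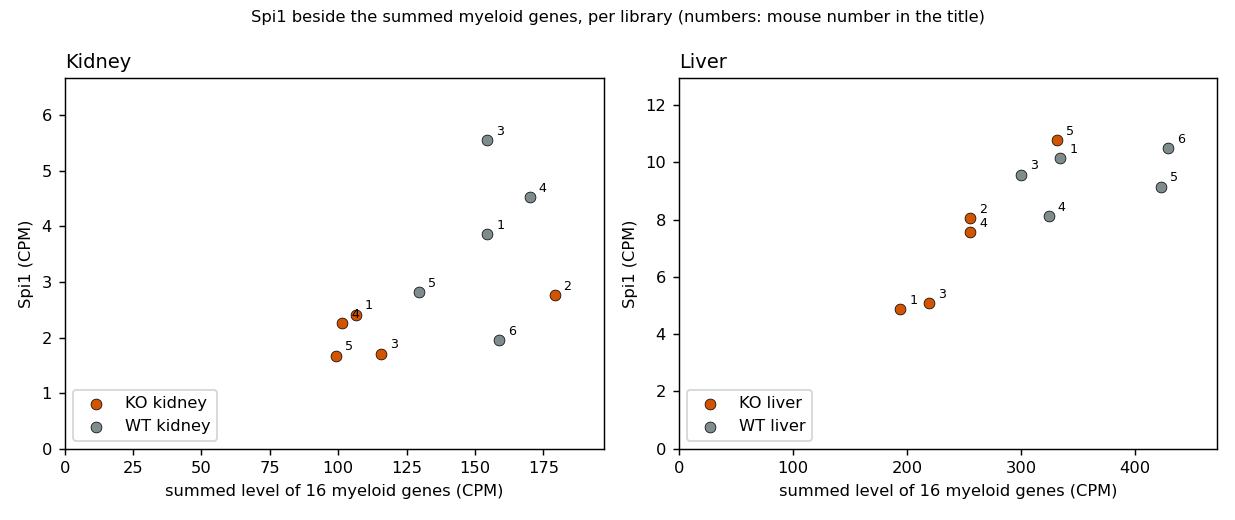
Level of Spi1 (y axis, CPM) against the summed level of 16 myeloid genes (x axis, CPM) in each kidney library (left) and liver library (right), with the number of the mouse beside each point. KO livers 1 and 3 are lowest on both axes (4.88 and 5.07 CPM of Spi1), and KO liver 5 (10.8 CPM of Spi1) has a myeloid sum within the WT range.

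Psmc3 and Slc39a13 overlap tail to tail on opposite strands, as Acp2 and Ddb2 do, with 215 shared exonic bases. Psmc3, an ATPase subunit of the 26S proteasome, averaged 174 ± 23.5 CPM in KO kidney and 127 ± 38.2 CPM in WT kidney, and 176 ± 25.4 CPM in KO liver and 140 ± 16.5 CPM in WT liver. Its log2 fold change was 0.43 (SE 0.22) in kidney and 0.32 (SE 0.12) in liver, with overlapping groups. The kidney value rested on WT kidneys 3 and 1, at 69.1 and 107 CPM against 145 to 162 CPM in the other WT kidneys, and was 0.16 without them. The liver value was 0.19 without KO livers 4 and 5. None of 16 other subunits of the proteasome's regulatory particle was called. Their medians were 0.45 in kidney and 0.17 in liver, against -0.07 and -0.0032 over all genes. They summed to 651 to 1389 CPM in WT kidney and 1332 to 1755 CPM in KO kidney. Their kidney median was not computed without WT kidneys 1 and 3.

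Slc39a13, a zinc transporter of intracellular vesicles, averaged 28.2 ± 4.13 CPM in KO kidney and 32.4 ± 11.6 CPM in WT kidney, and 16.8 ± 3.22 CPM in KO liver and 14.0 ± 0.786 CPM in WT liver. The log2 fold change of -0.24 (SE 0.23) in kidney became 0.15 without WT kidneys 1 and 3, which held 38.9 and 48.7 CPM. In liver the value of 0.26 (SE 0.13) became 0.08 without KO livers 4 and 5, at 19.1 and 21.3 CPM against 14.1 to 15.5 CPM in the other KO livers. The ratio of Psmc3 to Slc39a13 ran from 1.42 to 8.33 among the WT kidneys, against 5.65 to 6.87 among the KO kidneys. Of 12 other Slc39 genes tested, 2 fell in KO liver. These were Slc39a5 (log2 fold change -1.58, edgeR adjusted p = 0.00698) and Slc39a4 (-0.62, 0.0289), zinc importers of the cell surface. In kidney none of the 12 was called, and the medians were 0.23 in kidney and 0.03 in liver.

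Celf1 and Rapsn, the farthest on the left, and Pacsin3, the farthest on the right, had overlapping genotypes and were not called. Celf1, an RNA-binding protein of splicing and mRNA decay, averaged 54.6 ± 8.27 CPM in KO kidney and 49.8 ± 13.1 CPM in WT kidney, and 84.6 ± 7.93 CPM in KO liver and 94.2 ± 10.5 CPM in WT liver. Its log2 fold change was 0.11 (SE 0.20) in kidney, which became -0.0011 without WT kidney 3 and 0.20 without WT kidney 1, and -0.17 (SE 0.11) in liver. Rapsn, which clusters acetylcholine receptors at the neuromuscular junction, averaged 2.60 ± 0.713 CPM in KO kidney and 2.73 ± 0.643 CPM in WT kidney (-0.10, SE 0.26). In liver it had 1 to 6 counts in KO libraries and 0 to 7 in WT libraries. Pacsin3 averaged 16.5 ± 1.95 CPM in KO kidney and 16.7 ± 4.43 CPM in WT kidney, and 65.0 ± 12.8 CPM in KO liver and 61.0 ± 2.22 CPM in WT liver. Without WT kidneys 1 and 3 the kidney log2 fold change of Pacsin3 was 0.24 and that of Rapsn 0.01. The lists drawn up for these genes held no genotype call either, with 6 Celf and Mbnl genes, 5 postsynaptic genes and 8 Pacsin partners tested in kidney and 4, 3 and 7 in liver. Their medians were -0.50, -0.70 and -0.20 in kidney and 0.05, 0.07 and 0.04 in liver.

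**Figure D4:**
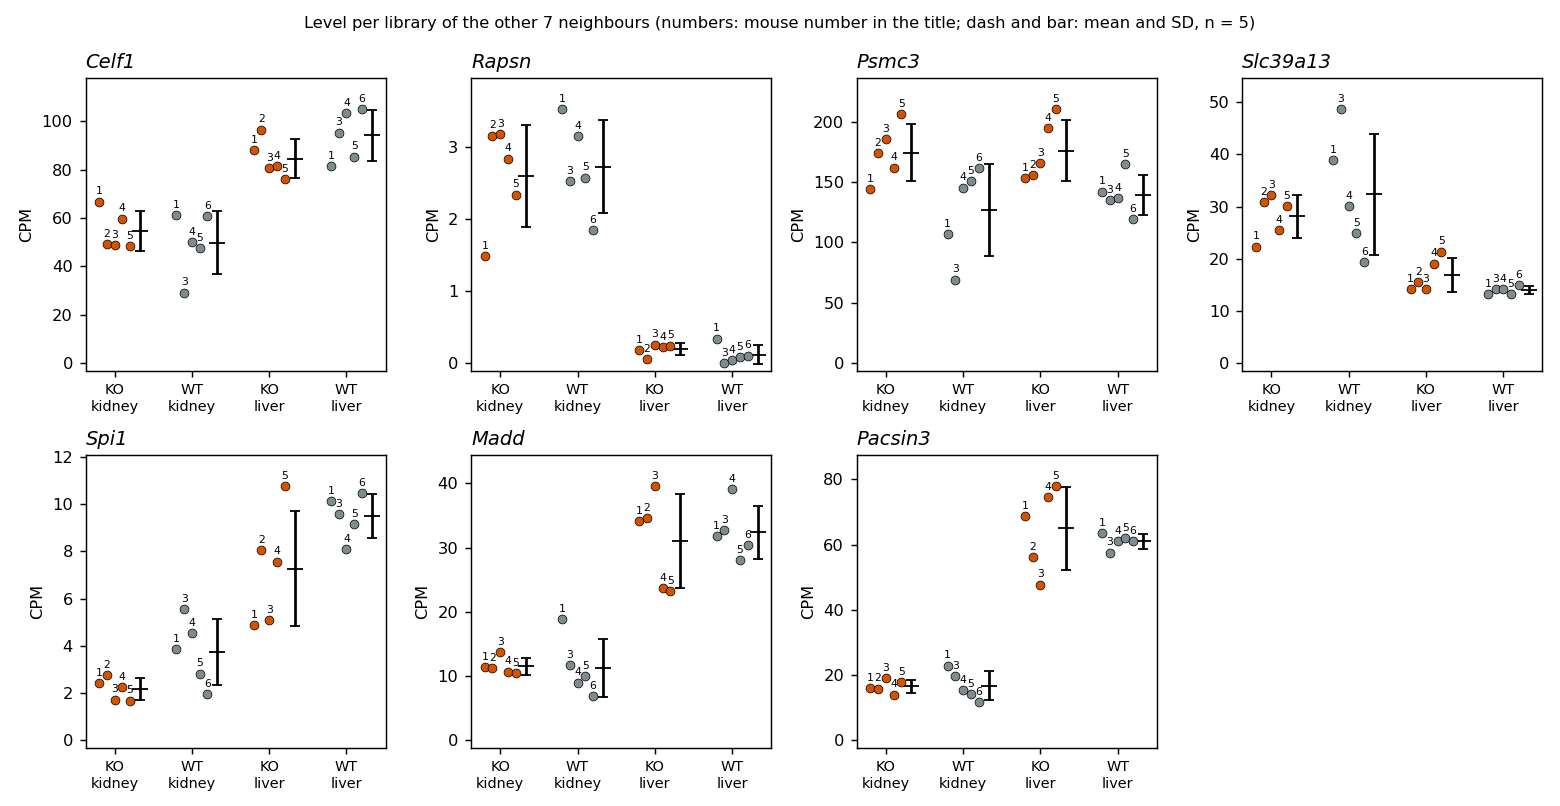
Level of the 7 neighbours other than Acp2 and Ddb2 in each library (y axis, CPM) by group, with the number of the mouse above each point and a dash and bar for the mean and SD of 5 libraries. KO and WT points of the same tissue overlap in all 7 genes, and WT kidneys 1 and 3 often lie at an edge of their group.

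No listed gene of the pathways of Acp2 and Ddb2 was called as higher in KO libraries. Of 30 lysosomal hydrolase genes none was called in kidney (median log2 fold change 0.29, against -0.07 over all genes). In liver 6 fell and none rose (median -0.13, against -0.0032), where 4.08% of all genes were called as lower. The 3 with the smallest p were Glb1, the lysosomal beta-galactosidase (-0.80, edgeR adjusted p = 0.00143), Ctsd, the aspartic protease cathepsin D (-0.60, 0.00894), and Lipa, the acid lipase of cholesteryl esters (-0.68, 0.0111). For Ddb2, none of 17 nucleotide excision repair genes was called in kidney (median 0.14) or liver (0.03). Ddb1, its partner in the damage-binding complex, gave 0.35 (edgeR adjusted p = 0.411) in kidney and -0.13 (0.698) in liver. Of 18 p53 target genes 1 fell in each tissue and none rose. These were Cdkn1a, which encodes the cell cycle inhibitor p21, in kidney (-1.02, edgeR adjusted p = 0.0233) and Phlda3, an Akt inhibitor, in liver (-1.34, 0.0478), and the medians were -0.25 and -0.16.

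Across all 20 libraries, Nr1h3 was the gene whose profile lay nearest to that of Acp2. This restates in part what was known when the genes were picked, since the libraries include both genotypes and both genes were higher in the KO ones, so it is a description and no support. Likeness was the root-mean-square difference of log2 CPM after each gene was centred, among 14223 genes with a mean of at least 1 CPM. The difference from Acp2 was 0.30 for Nr1h3, and 0.43 and 0.44 for the next genes, Dnajb11 and Tmem19, and the lowest 1% of genes lay under 0.55. For Ddb2 the nearest were Dpy19l3 (0.42), Tiam2 (0.45) and Arhgap26 (0.46), where the lowest 1% lay under 0.74, and Nr1h3 ranked 586.

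The comparison of tissues within WT mice tested what the choice of genes did not use. In KO mice the tissue difference of every neighbour also holds its genotype effects, which were known at the choice. Rapsn passed the filter on low counts through its kidney libraries alone and so had to differ, and it is left out of the counts that follow. Between KO kidney and KO liver, edgeR called 7 of the other 8 neighbours, 1 higher and 6 lower in kidney, where it called 66.7% of 16202 genes (34.2% higher and 32.6% lower). The 6 include Ddb2, whose genotype effects differed most between the tissues. Between WT kidney and WT liver it called 6 of the 8, 1 higher and 5 lower, where it called 53.8% of 16645 genes (29.6% higher and 24.2% lower). The difference between these shares and those of all genes was not tested. The shares of all genes still include genes that passed the filter through kidney or liver alone, so the sets are unlike. TMM factors, which scale for composition, ran from 1.03 to 1.61 in kidney and from 0.757 to 0.907 in liver. Without scaling for composition the median of all genes moved to 0.62 in KO and 0.69 in WT, against -0.0031 and 0.05 with it, and 77.7% and 79.8% of called genes were higher in kidney, against 51.2% and 55.0%.

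Pacsin3, Spi1 and Madd were lower in kidney than in liver in both genotypes. Pacsin3 differed by -1.98 (SE 0.14, edgeR adjusted p = 4.78e-08) in KO mice and by -1.86 (SE 0.19, 1.61e-06) in WT mice, on the log2 scale. For Spi1 the differences were -1.74 (SE 0.25, edgeR adjusted p = 3.94e-05) in KO mice and -1.34 (SE 0.26, 0.000546) in WT mice. Of the 16 myeloid genes 13 fell in KO kidney relative to KO liver, and 12 fell in WT kidney relative to WT liver, with none higher. Madd differed by -1.43 (SE 0.16, edgeR adjusted p = 2.98e-06) in KO mice and by -1.52 (SE 0.24, 0.000118) in WT mice. Syt1, a synaptic vesicle gene listed as a neuron marker, was lower in kidney too, at -6.00 (1.65e-09) in KO mice and -6.84 (8.34e-11) in WT mice. The neuron markers went both ways, with 1 higher and 1 lower in kidney of 2 tested in KO mice. In WT mice 1 was higher and 2 were lower of 3 tested.

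Slc39a13 was the neighbour called as higher in kidney, and Rapsn was hardly counted in liver. Slc39a13 differed by 0.74 (SE 0.14, edgeR adjusted p = 0.000513) in KO mice and by 1.22 (SE 0.23, 0.000410) in WT mice. The other Slc39 genes went both ways, with 5 higher and 5 lower of 12 in KO mice and 4 and 4 in WT mice. Slc39a5 was higher in kidney (4.99, edgeR adjusted p = 1.41e-11, in KO mice and 3.82, 5.39e-08, in WT mice), and Slc39a4 was lower (-8.22, 2.54e-09, and -9.25, 2.42e-11). Rapsn averaged 2.60 ± 0.713 CPM in KO kidney and 0.191 ± 0.0824 CPM in KO liver, and 2.73 ± 0.643 CPM in WT kidney and 0.114 ± 0.132 CPM in WT liver, with at most 7 counts in any liver. No test is given for it, for the reason above. Skeletal muscle markers summed to at most 1.58 CPM in every library. Chrnb1, a subunit of the receptor that rapsyn clusters, was higher in kidney as well (1.96, edgeR adjusted p = 4.95e-05, in KO mice and 2.88, 7.22e-06, in WT mice). Of the listed postsynaptic genes, 2 of 4 tested were higher in kidney and none lower in KO mice. In WT mice 3 of 5 tested were higher and 1 was lower.

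Acp2 and Celf1 were lower in kidney in both genotypes, and Ddb2 was called as lower in KO mice and not called in WT mice. Acp2 differed by -0.81 (SE 0.10, edgeR adjusted p = 1.07e-05) in KO mice and by -0.92 (SE 0.13, 3.54e-05) in WT mice. Celf1 differed by -0.63 (SE 0.12, edgeR adjusted p = 0.000492) in KO mice and by -0.91 (SE 0.20, 0.00157) in WT mice. Ddb2 differed by -0.76 (SE 0.12) in KO mice and by 0.41 (SE 0.24, 95% interval -0.10 to 0.93, edgeR adjusted p = 0.164) in WT mice. Without WT kidney 3 the WT value of Ddb2 was 0.18, and without WT kidneys 1 and 3 it was 0.16. The gap between the KO and WT values of Ddb2 is the kidney minus liver difference given above, seen from the other side. That difference was known when the genes were picked, so the KO value of Ddb2 is a description and its call no support. The KO value of Acp2 likewise holds its genotype effects, whose kidney minus liver difference was 0.11 (SE 0.16). Its KO call is therefore no support apart from its WT call. Psmc3 was not called, at -0.01 (95% interval -0.29 to 0.26) in KO mice and -0.13 (-0.62 to 0.35) in WT mice. Without scaling for composition the calls of Celf1 (-0.0031 in KO and -0.24 in WT), Acp2 (-0.19 and -0.28) and Ddb2 in KO (-0.14) were lost, and Ddb2 was called as higher in WT kidney (1.02).

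**Figure D5:**
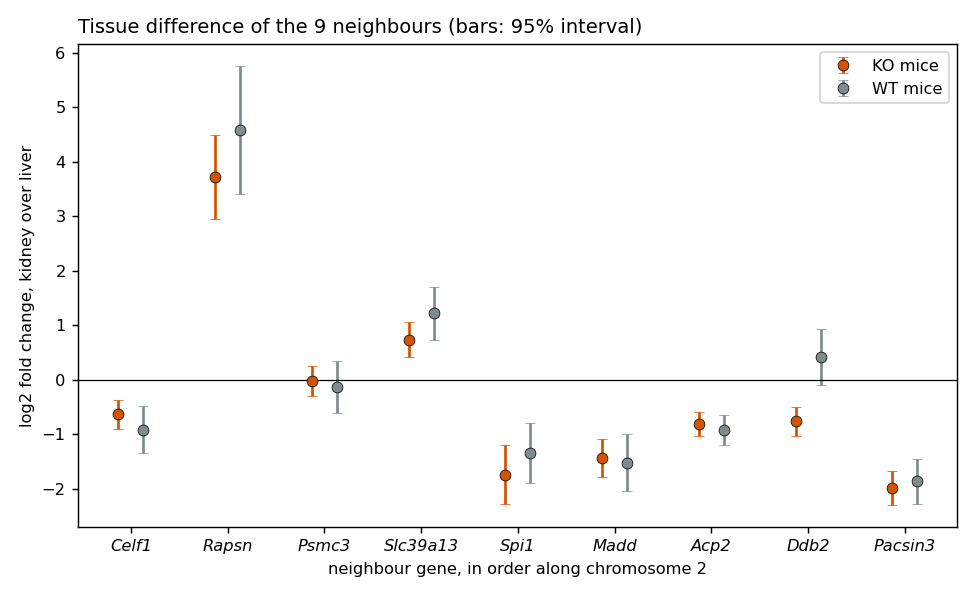
Log2 fold change, kidney over liver (y axis), of the 9 neighbours in order along chromosome 2 (x axis), in KO mice (left point of each pair) and WT mice (right point), with bars for the 95% interval. Both genotypes lie on the same side of 0 except for Ddb2, at -0.76 in KO mice and 0.41 in WT mice (0.18 without WT kidney 3), and the WT interval of Ddb2 includes 0. Rapsn, which passed the filter through kidney alone, is drawn as a description.

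Per length, the neighbours covered a wide range of levels. FPKM, computed as CPM per kilobase of exonic length, had group means of 48.6 to 67.5 for Psmc3, 5.34 to 24.1 for Acp2, 3.82 to 15.0 for Pacsin3 and 5.89 to 11.2 for Celf1. Ddb2 had 2.09 to 9.36, Slc39a13 2.87 to 6.65, Madd 1.24 to 3.56, Spi1 0.803 to 3.52 and Rapsn 0.0633 to 1.51 FPKM. Nr1h3 itself had 16.4 to 82.9 FPKM.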

How the data were processed

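Per the labels' protocols, RNA was extracted with Trizol and 3 ug per sample went into NEBNext Ultra libraries for Illumina sequencing. The deposited table holds raw counts per gene, which the authors made from reads, with gene length and position on mm10; StringTie, HISAT2 2.0.5 and DESeq2 1.16.1 are listed in the submitters' processing notes, without roles. The counting tool and its use of strand are not given in the sources used here. A second table, of log2 FPKM values, was not used here. Of 54532 genes, 20087 had no count.

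Each comparison was fitted on its own 10 libraries with edgeR 4.0.16 in R 4.3.3 (filterByExpr with minimum count 10, TMM scaling, quasi-likelihood F test, Benjamini-Hochberg adjustment over all genes, called under 0.05). The effect in kidney minus that in liver came from 1 fit of all 20 libraries. Standard errors were computed from the fold change and its F statistic. CPM in the text uses TMM factors over all 20 libraries. The pipeline was tested on simulated data. Intervals are for the log2 fold change between group means and do not span the single libraries. The main fits treated the kidney and liver of a mouse as independent. No 2 libraries held identical counts. The neighbours, the 10 pathway lists, the marker lists, the tests, the alternatives and the rule for named genes were chosen with earlier results of these data known. That rule covered the 9 genes and Nr1h3, genes called within 1000 kb, up to 3 called genes of each list by p, and the 3 genes most like Acp2 and Ddb2. Not all genes that it covered are named in the text. A330069E16Rik, Mdk and Dgkz in the genotype comparison, Ddb1, and Syt1 were named for their place, role or value after the values were seen.

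The series design gives 5 mice per genotype with both tissues, so a kidney and a liver with the same genotype and title number were treated as coming from 1 mouse. Their deviations from the group means correlated at -0.0965 to 0.262 in KO mice and -0.163 to 0.362 in WT mice over genes. The mouse as a block was an alternative. Others were DESeq2 1.42.0, DESeq2 size factors, no TMM, no filter, all libraries in 1 fit, no mitochondrial genes, and leaving out each library. Fits without WT kidneys 1 and 3 and without KO livers 4 and 5 were tried as well. The alternatives of the kidney minus liver difference were added after seeing the data. Gene spans matched GENCODE M21, and promoters are RefSeq's on GRCm38.p6.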

Additional observations from a re-analysis of the deposited data

Results flagged for a closer look

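Ddb2 in WT kidney 3 stood apart from its group. That library had 12.2 CPM, against 5.59 to 7.08 CPM in the other 4 WT kidneys, so the gap took up 0.775 of the group's range, above Dixon's 95% critical value for 5 samples. It was the 1 case among 36 combinations of gene and group, and chance gives about 1 in 20. The same library had a mitochondrially encoded share of 50.8% and was the lowest WT kidney for Psmc3 (69.1 CPM) and Celf1 (29.2 CPM) and the highest for Slc39a13 (48.7 CPM) and Spi1 (5.55 CPM). The part of that share in these levels was not tested. Without the library the kidney log2 fold change of Ddb2 was 1.23.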

How the results depend on the processing

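Between tissues, 303 of 324 values of a neighbour under an alternative kept both their direction and their side of the threshold, and 7 changed their call. By genotype, 270 of 306 kept both. There 29 changed sign, all of uncalled values (Celf1, Madd, Pacsin3, Rapsn and Slc39a13), and 7 lost the call of Ddb2 in kidney. The number of neighbours called in kidney by genotype was 2 in the fits with all libraries and 1 to 2 without 1 library, the lost call being Ddb2. Psmc3, near 0 and uncalled between tissues in the results above, changed sign. It was also among the genes whose call changed between tissues, with Acp2, Celf1 and Ddb2. In WT mice it gave 0.53 without TMM, 0.13 without WT kidneys 1 and 3 and -0.24 to 0.0212 without 1 library. In KO mice it gave 0.0212 with DESeq2, 0.00028 with DESeq2 size factors, 0.61 without TMM, 0.0747 without a filter, 0.0126 without mitochondrial genes, 0.13 without KO livers 4 and 5 and -0.0668 to 0.0809 without 1 library.

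Counts over all genes moved more. By genotype in kidney, edgeR called 373 genes, against 1093 with DESeq2 (289 higher and 804 lower), 948 in the fit of all libraries and 99 to 921 without 1 library. Without WT kidneys 1 and 3 it called 590, of which 30.0% were higher, against 17.4% with them. In liver the count was 893, against 1449 with DESeq2 and 575 to 913 without 1 library. Equal title numbers of KO and WT mice are not said to share anything, and their deviations correlated at 0.0771 to 0.222 in kidney, where 2 of 4 matched best with their own number, and -0.0331 to 0.0132 in liver. With the number as a replicate block, libraries without a partner number in the other genotype (KO 2 and WT 6) were left out. There 909 genes were called in kidney and 296 in liver, and 2 neighbours in each. Leaving out only WT kidney 6, without a block, gave 921 in kidney, and leaving out only WT liver 6 gave 575 in liver. The effects of the block and of the missing libraries were not separated. The mouse as a block changed no call of a neighbour between tissues (8 in KO and 7 in WT mice, Rapsn included). With 5 libraries a group and counts as low as 0 for Rapsn in liver, small differences were not detectable.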

Other observations

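Beyond the 9 neighbours, the window of 1000 kb around Nr1h3 held genes with marked tissue preference. F2, which encodes prothrombin, the clotting factor made by hepatocytes, was lower in kidney than in liver by log2 fold changes of -11.54 (edgeR adjusted p = 1.05e-10) in KO mice and -12.98 (4.21e-11) in WT mice. Mdk, a heparin-binding growth factor gene, was higher in kidney by 5.58 (edgeR adjusted p = 1.39e-09) in KO mice and 5.47 (1.93e-09) in WT mice. C1qtnf4, a secreted C1q-like gene, was higher by 2.70 (edgeR adjusted p = 1.44e-06) in KO mice and 2.38 (5.69e-06) in WT mice. Ptpmt1, a mitochondrial phosphatase gene of cardiolipin synthesis, was lower, at -1.48 (edgeR adjusted p = 4.01e-08) in KO mice and -1.89 (1.27e-06) in WT mice. Arfgap2, next to Pacsin3 and active in Golgi vesicle traffic, was lower, at -1.63 (edgeR adjusted p = 1.68e-06) in KO mice and -1.59 (6.73e-05) in WT mice, as Pacsin3 was. On its other side lies 1110051M20Rik, whose span overlaps that of Arfgap2 and which was higher in kidney. It differed by 2.17 (edgeR adjusted p = 5.16e-09) in KO mice and by 2.41 (1.83e-07) in WT mice. In all, 16 of 26 tested genes other than Nr1h3 and the neighbours were called in KO mice (6 higher and 10 lower in kidney) and 15 of 27 in WT mice (7 higher and 8 lower), against 66.7% and 53.8% of all genes. None of them was called by genotype in either tissue. Agbl2 and Gm13778, among the 7 higher in WT kidney, did not pass the filter on low counts in liver. Their calls are no support, as for Rapsn.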
